A study of Mus musculus with 9 samples.

Results

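The 5 genes I730030J21Rik, I830077J02Rik, Gpc3, Lrrc66 and Mfsd13a gave a higher signal in long-term haematopoietic stem cells with a mutant Jak2 allele than in control cells, and a signal near or under that of controls where Ezh2 had been deleted as well. They were picked, from 22180 genes measured with a single gene symbol, because their Jak2VF mean lay above the WT mean and their Jak2VF_Ezh2KO mean lay near or below it. The choice used the levels in all 3 groups, so the levels and differences of these genes are given as a description, with no test. None of these 5 genes carried more than 1 probe set.

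The cells came from bone marrow of C57BL/6 mice and were sorted by flow cytometry as lineage-negative, Sca-1-positive and c-kit-positive cells lacking CD34 and CD135. The WT group was the control, the Jak2VF group was MxCre Jak2VF/+, and the Jak2VF_Ezh2KO group was MxCre Jak2VF/+ EZH2-/-, with 3 biological replicates each. All mice, controls included, had been given pI-pC in 5 doses of 300 µg each when 4 weeks old and were analysed 12 weeks later, and 10 ng of RNA was amplified for each array. MxCre is driven by the interferon-inducible Mx1 promoter and switches on in liver, blood cells and other tissues after pI-pC, so it is not restricted to stem cells. The sources used here do not say whether the controls carried MxCre. Jak2 is the kinase that passes signals from the thrombopoietin and erythropoietin receptors to STAT proteins, and the Jak2VF allele gives a kinase that signals without ligand. Ezh2 is the enzyme of Polycomb repressive complex 2, which marks histone H3 in repressed genes with methyl groups.

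Of the 5 genes, Gpc3 is the best characterised. It encodes glypican 3, a heparan sulfate proteoglycan held at the cell surface by a lipid anchor, which binds hedgehog and Wnt proteins and restrains growth of the body. Heparan sulfate chains on such core proteins hold growth factors near their receptors. Lrrc66 encodes a membrane protein with leucine-rich repeats, and Mfsd13a encodes a membrane protein of the major facilitator family, whose members carry small molecules across membranes. I830077J02Rik is a protein-coding gene known by its clone name, and I730030J21Rik is annotated as a long noncoding RNA.

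The genes lie on 5 different chromosomes, and their promoters were compared because the genes were high in the same arrays. RefSeq promoter sequences of build GRCm38.p6 were found for all 5 genes, and the 250 bases before each start site were searched. Those of I830077J02Rik and I730030J21Rik are shown because these genes had the widest steps up in the Jak2VF arrays. That of Gpc3 is shown as the most CpG-rich of the 5. They run 5′ to 3′ on the gene's strand, and capitals mark a match to a searched motif.
I830077J02Rik: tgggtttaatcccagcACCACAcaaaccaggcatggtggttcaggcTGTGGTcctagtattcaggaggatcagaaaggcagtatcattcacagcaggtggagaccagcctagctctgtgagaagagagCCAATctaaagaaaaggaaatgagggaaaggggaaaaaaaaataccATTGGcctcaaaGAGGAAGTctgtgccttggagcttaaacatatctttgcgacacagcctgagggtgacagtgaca
I730030J21Rik: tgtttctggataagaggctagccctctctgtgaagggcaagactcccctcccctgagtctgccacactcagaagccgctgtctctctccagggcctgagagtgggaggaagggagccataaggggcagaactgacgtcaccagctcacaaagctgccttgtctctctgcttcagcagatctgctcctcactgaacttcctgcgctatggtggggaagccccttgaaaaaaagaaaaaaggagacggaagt
Gpc3: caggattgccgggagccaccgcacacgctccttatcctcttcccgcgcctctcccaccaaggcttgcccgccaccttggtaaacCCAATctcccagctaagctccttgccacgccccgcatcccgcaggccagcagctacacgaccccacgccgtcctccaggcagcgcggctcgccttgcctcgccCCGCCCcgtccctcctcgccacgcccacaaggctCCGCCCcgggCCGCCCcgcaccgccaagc
The I830077J02Rik sequence spans chr3:105932665-105932914 on the minus strand. That of I730030J21Rik spans chr15:100732738-100732987 on the minus strand. That of Gpc3 spans chrX:52613975-52614224, also on the minus strand. Each lies directly before the gene's annotated start.

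These promoters differed in base composition. The Gpc3 promoter held 25 CpG dinucleotides and 71.6% G and C, and 89.3% of the 32851 promoter entries held fewer CpG. The I830077J02Rik promoter held 1 CpG and 47.6% G and C, and 7.87% of entries held fewer CpG. The I730030J21Rik promoter held 4 CpG, the Lrrc66 promoter 5 and the Mfsd13a promoter 9, beside a median of 6 over all entries. The 5 genes thus came from CpG-poor as well as CpG-rich promoters.

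A set of 7 motifs was searched on both strands: TTCNNNGAA for STAT factors, AGATAA for GATA factors, TGTGGT for RUNX factors, GAGGAAGT for PU.1, the GC box GGGCGG, the CCAAT box and the TATA box TATAAA. The I830077J02Rik promoter held the RUNX motif at 234 to 229 and at 204 to 199 bases before the start, PU.1's at 64 to 57, and CCAAT at 122 to 118 and 76 to 72. Over all promoter entries, 14% held the RUNX motif and 2.44% that of PU.1. The Gpc3 promoter held GC boxes at 63 to 58, 29 to 24 and 19 to 14 bases before the start and CCAAT at 166 to 162, beside 32.7% of entries with a GC box and 33.8% with CCAAT. The Lrrc66 promoter held 2 GC boxes and a CCAAT box that shares letters with the upstream GC box, and the Mfsd13a promoter held a GATA motif and a CCAAT box. The I730030J21Rik promoter held none of the 7, and none of the 5 windows held the STAT motif, found in 7.02% of entries, or the TATA box, found in 12.4%. The GATA motif was in 9.99% of entries. No motif was present in all 5 windows, and the matches are letters in the sequence, not measured binding.

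The arrays had medians of 5.51 to 5.67 (log2) over all probe sets and correlated with each other at 0.898 to 0.968. Jak2VF_Ezh2KO replicates 1 and 2 stood apart in their sex-linked signal. The mean of 3 Y-linked genes was 6.66 and 6.81 there and between 3.64 and 4.08 in the other 7 arrays, and Xist was 4.86 and 4.56 there and between 10.8 and 11.3 in the other 7. The differences of the 5 genes, the counts of calls and the called list genes are therefore also given without them. That leaves 1 array in the Jak2VF_Ezh2KO group, so fewer calls there cannot be told apart from lost precision. Ezh2 itself, the deleted gene, read 8.48, 8.81 and 8.69 in the WT arrays, 8.87, 9.09 and 8.78 in the Jak2VF arrays, and 8.47, 8.08 and 8.42 in the Jak2VF_Ezh2KO arrays. Its Jak2VF_Ezh2KO signal was below that of Jak2VF in every array, by -0.59 ± 0.16 (SE), which did not pass after adjustment (limma, adjusted p = 0.411), and by -0.49 without the arrays with Y-linked signal. The sources used here do not say where its probes lie relative to the deleted part, so this signal may not check the deletion. Over all 22180 genes, limma called 0 genes between Jak2VF and WT at an adjusted p under 0.05 (0%), with 632 higher (2.85%) and 402 lower (1.81%) at an unadjusted p under 0.05. It called 10 genes between Jak2VF_Ezh2KO and Jak2VF (0.0451%), 7 of them higher (0.0316%) and 3 lower (0.0135%) in Jak2VF_Ezh2KO, with 2.91% higher and 3.99% lower at an unadjusted p under 0.05. Between Jak2VF_Ezh2KO and WT it called 5 (0.0225%), 4 higher (0.018%) and 1 lower (0.00451%), with 4.54% higher and 4.06% lower at an unadjusted p under 0.05. Without the arrays with Y-linked signal, 0 genes were called in both of these comparisons.

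I830077J02Rik had the widest step between the Jak2VF arrays and the highest other array of the 290 genes in which every Jak2VF array was highest. Its log2 signal was 5.97, 6.36 and 6.52 in the WT arrays, 7.56, 7.60 and 7.75 in the Jak2VF arrays, and 6.25, 5.56 and 6.10 in the Jak2VF_Ezh2KO arrays. The Jak2VF arrays lay close together and 1.04 above the highest of the other 6 arrays, whereas WT and Jak2VF_Ezh2KO arrays overlapped. The group means were 6.29 ± 0.28 in WT, 7.64 ± 0.10 in Jak2VF and 5.97 ± 0.36 in Jak2VF_Ezh2KO (SD, n = 3). Jak2VF was higher than WT by 1.35 ± 0.20 (SE), 2.55-fold, and Jak2VF_Ezh2KO differed from Jak2VF by -1.66 ± 0.20, 3.17-fold lower. The remaining difference between Jak2VF_Ezh2KO and WT was -0.31 ± 0.20 and lay within the spread between arrays. In order of level, Jak2VF came first, and WT and Jak2VF_Ezh2KO followed with overlapping arrays.

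I730030J21Rik, the noncoding RNA gene on chromosome 15, gave 3 separate levels. Its signal was 8.37, 8.45 and 8.25 in the WT arrays, 9.23, 9.13 and 9.63 in the Jak2VF arrays, and 7.52, 7.81 and 7.73 in the Jak2VF_Ezh2KO arrays. Every Jak2VF array lay above every WT array, and every WT array above every Jak2VF_Ezh2KO array. Means were 8.36 ± 0.10 in WT, 9.33 ± 0.26 in Jak2VF and 7.69 ± 0.15 in Jak2VF_Ezh2KO (SD, n = 3). Jak2VF was higher than WT by 0.97 ± 0.16 (SE), 1.96-fold. Jak2VF_Ezh2KO differed from Jak2VF by -1.64 ± 0.16, 3.12-fold lower, and from WT by -0.67 ± 0.16, 1.59-fold lower. The Jak2VF_Ezh2KO level was therefore below the control level, not at it.

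Gpc3 had the same order of groups as the noncoding RNA, over a smaller range. Its signal was 4.60, 4.86 and 4.60 in the WT arrays, 5.37, 5.23 and 5.26 in the Jak2VF arrays, and 4.27, 4.47 and 4.39 in the Jak2VF_Ezh2KO arrays. The 3 groups did not overlap, with WT in the middle. Means were 4.68 ± 0.15 in WT, 5.29 ± 0.08 in Jak2VF and 4.38 ± 0.10 in Jak2VF_Ezh2KO (SD, n = 3). The Jak2VF signal was 1.52-fold that of WT, a difference of 0.60 ± 0.13 (SE), and Jak2VF_Ezh2KO differed from Jak2VF by -0.91 ± 0.13 and from WT by -0.31 ± 0.13. Gpc3 was dim: the mean over 1394 olfactory and vomeronasal receptor genes, taken here as a floor, lay between 3.83 and 4.32 in the 9 arrays. Over the 9 arrays, Gpc3 had a higher mean than 73.7% of these receptor genes, so its signal lay inside their range. No detection call was used here, and how much of the Gpc3 signal was background was not tested, so the folds of Gpc3 are those of the measured signal. Receptor-gene means overlapped between WT (3.87 to 4.32), Jak2VF (3.83 to 4.31) and Jak2VF_Ezh2KO (3.90 to 4.05). The order WT between the other groups, with no overlap, was found for 30 genes (0.135%), I730030J21Rik and Gpc3 among them.

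Lrrc66 varied least between Jak2VF arrays. Its signal was 5.95, 5.94 and 5.72 in the WT arrays, 6.50, 6.44 and 6.43 in the Jak2VF arrays, and 6.11, 5.97 and 6.00 in the Jak2VF_Ezh2KO arrays. Here the middle group was Jak2VF_Ezh2KO, whose lowest array lay just above the highest WT array. Means were 5.87 ± 0.13, 6.46 ± 0.04 and 6.03 ± 0.07 in WT, Jak2VF and Jak2VF_Ezh2KO (SD, n = 3). Jak2VF was higher than WT by 0.59 ± 0.12 (SE), 1.5-fold. Jak2VF_Ezh2KO differed from Jak2VF by -0.43 ± 0.12, 1.35-fold lower, and from WT by 0.16 ± 0.12. The difference from WT, though without overlap, was close to the SD of the WT arrays.

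Mfsd13a, on chromosome 19, gave 7.01, 7.37 and 7.23 in the WT arrays, 7.71, 8.14 and 7.95 in the Jak2VF arrays, and 7.30, 7.17 and 7.45 in the Jak2VF_Ezh2KO arrays. The Jak2VF arrays were the highest, and the other groups overlapped. Means were 7.20 ± 0.18 in WT, 7.93 ± 0.22 in Jak2VF and 7.31 ± 0.14 in Jak2VF_Ezh2KO (SD, n = 3). Jak2VF was higher than WT by 0.73 ± 0.16 (SE), 1.65-fold, and Jak2VF_Ezh2KO differed from Jak2VF by -0.62 ± 0.16. Between Jak2VF_Ezh2KO and WT the difference was 0.10 ± 0.16, within the spread between arrays. As bulk samples, these arrays cannot tell apart fewer cells with a transcript from less of it per cell.

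**Figure D1:**
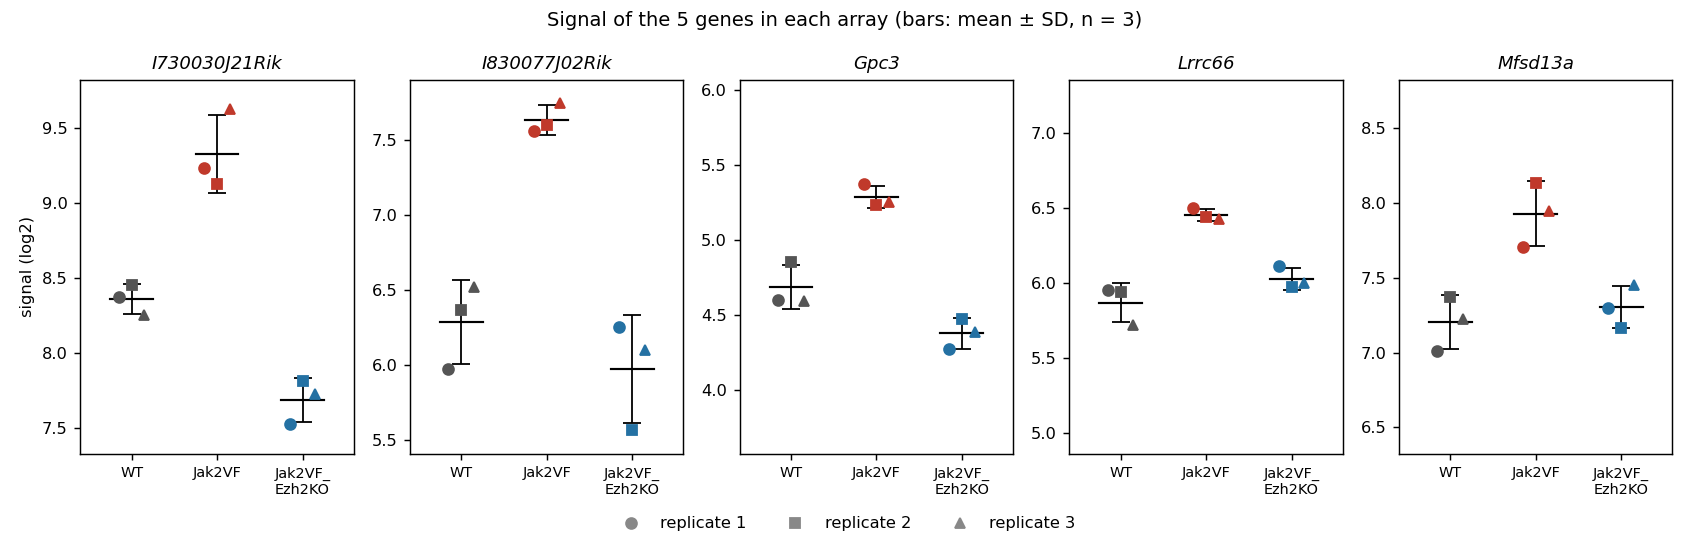
Signal (log2) of I730030J21Rik, I830077J02Rik, Gpc3, Lrrc66 and Mfsd13a in each array, by group; symbols mark the replicates and bars show the mean ± SD of 3 arrays. All panels span the same number of log2 units, so the wider steps of the first pair show directly, and the blue Jak2VF_Ezh2KO points lie below the grey WT points for I730030J21Rik and Gpc3 and just above them for Lrrc66.

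The comparisons of Jak2VF with WT and with Jak2VF_Ezh2KO share the Jak2VF arrays, so their opposite signs are not separate evidence. The third comparison leaves those arrays out, but it too was part of the choice of genes. It divided the genes. Jak2VF_Ezh2KO was below WT without overlap for I730030J21Rik and Gpc3 (6.62% of all genes were lower without overlap). It was above WT without overlap for Lrrc66 (6.28% were higher without overlap), and the groups overlapped for I830077J02Rik and Mfsd13a. Without the 2 arrays with Y-linked signal, the 1 remaining Jak2VF_Ezh2KO array differed from the Jak2VF mean by -1.60 for I730030J21Rik, -1.54 for I830077J02Rik, -0.90 for Gpc3, -0.45 for Lrrc66 and -0.48 for Mfsd13a. Its difference from WT was then -0.63, -0.19, -0.30, 0.13 and 0.25 in the same order of genes. All 5 differences from Jak2VF and all 5 from WT kept their sign, though the remaining array had also entered the choice.

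Every Jak2VF array lay above every WT array for 3.54% of genes, and above every Jak2VF_Ezh2KO array for 6.94%, and 4.18% had every Jak2VF array below every Jak2VF_Ezh2KO array. The 5 genes meet the first and second of these by choice. Every Jak2VF array lay above all 6 other arrays for 290 genes (1.31%). Ranked by the step from the highest other array to the lowest Jak2VF array, I830077J02Rik was at rank 1 with 1.04 and I730030J21Rik at rank 2 with 0.68. Gpc3 was at rank 13 with 0.38, Lrrc66 at rank 18 with 0.32 and Mfsd13a at rank 25 with 0.25. The choice of genes fixed this direction, so the ranks describe only how clearly each was separated. Ranked by the difference between Jak2VF and WT alone, among all 22180 genes, I830077J02Rik was at 10, I730030J21Rik at 49, Mfsd13a at 121, Gpc3 at 229 and Lrrc66 at 259. Gpc3 and Lrrc66 thus stood out by tight replicates more than by a large difference.

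**Figure D2:**
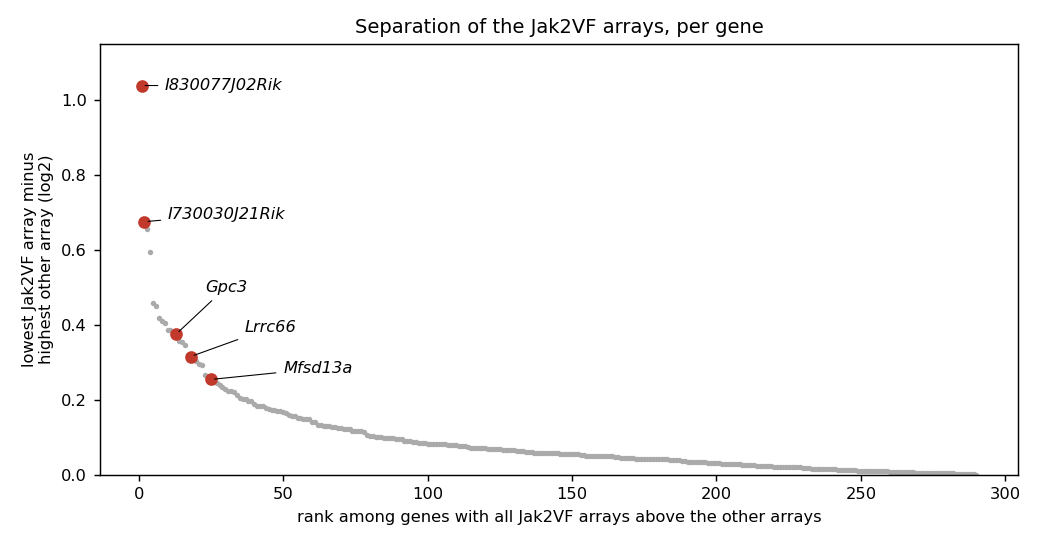
The step between the lowest Jak2VF array and the highest of the other 6 arrays (log2, vertical axis) for the 290 genes in which it is positive, by rank; red points are the 5 genes. I830077J02Rik and I730030J21Rik lie at 1.04 and 0.68, and Mfsd13a at 0.25, where the curve begins to flatten.

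The genes differed in how they varied among replicates. Over the 9 arrays the 10 pairs of genes correlated at 0.722 to 0.965, which includes the group pattern they were picked for. After subtracting each group's mean, the correlations lay between -0.317 and 0.552, and 4 of 10 were above 0. In the Jak2VF group, replicate 3 was highest for I730030J21Rik and I830077J02Rik, replicate 1 for Gpc3 and Lrrc66, and replicate 2 for Mfsd13a. No single Jak2VF array was highest for all 5 genes. Averaged over the 5 genes, each centred on its own mean, the arrays read -0.31, -0.10 and -0.23 in WT, 0.58, 0.61 and 0.71 in the Jak2VF arrays, and -0.40, -0.50 and -0.36 in Jak2VF_Ezh2KO.

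The heparan sulfate genes around Gpc3 did not pass the test. Of 16 other glypicans and heparan sulfate proteoglycans, all were measured and limma called 0 in each of the 3 comparisons. At an unadjusted p under 0.05, 2 were higher and 1 lower in Jak2VF against WT, and 2 were higher and 2 lower in Jak2VF_Ezh2KO against Jak2VF, with 0 against WT. Over all genes these shares were 2.85% and 1.81%, then 2.91% and 3.99%. Their median differences were 0.02 in Jak2VF against WT and -0.10 in Jak2VF_Ezh2KO against Jak2VF, beside 0.03 and -0.04 over all genes. Gpc2, a glypican of developing neurons, read 6.02, 5.98 and 6.07 in the WT arrays, 6.17, 6.52 and 6.39 in the Jak2VF arrays and 6.08, 5.93 and 6.08 in the Jak2VF_Ezh2KO arrays. Its Jak2VF arrays were all above the others, by 0.34 ± 0.13 (SE) over WT, and the test was not passed (limma, adjusted p = 0.924). Tgfbr3, the betaglycan co-receptor for TGF-beta, read 7.05, 7.13 and 7.08 in the WT arrays, 7.42, 7.82 and 7.48 in the Jak2VF arrays, and 7.24, 7.25 and 7.24 in the Jak2VF_Ezh2KO arrays. It too was above the other arrays in all of Jak2VF, with a difference from WT of 0.49 ± 0.13 (limma, adjusted p = 0.924). Gpc2 and Tgfbr3 were the 2 of these 16 genes with every Jak2VF array above all others, which held for 1.31% of all genes.

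Gpc4, the glypican gene next to Gpc3 on the X chromosome, had the opposite order. Its signal was 4.16, 4.35 and 4.23 in the WT arrays, 3.64, 3.98 and 4.05 in the Jak2VF arrays, and 4.48, 5.15 and 4.30 in the Jak2VF_Ezh2KO arrays. The Jak2VF arrays were the lowest, with differences of -0.36 ± 0.21 from WT (SE; limma, adjusted p = 0.924) and 0.75 ± 0.21 in Jak2VF_Ezh2KO against Jak2VF (adjusted p = 0.441). The latter was 0.50 without Jak2VF_Ezh2KO replicate 2, and 0.41 without both arrays with Y-linked signal. Every Jak2VF array was below all 6 others for 0.64% of genes. Like Gpc3 it was dim, within the range of the receptor-gene means in several arrays. Gpc1, Gpc5 and Gpc6 differed between Jak2VF and WT by 0.05, 0.23 and 0.08, with overlapping arrays. Of the other core proteins, Sdc4, a syndecan of cell adhesions with the matrix, had differences of -0.75 ± 0.28 and then 0.83 ± 0.28 (adjusted p = 0.924 and 0.573).

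**Figure D3:**
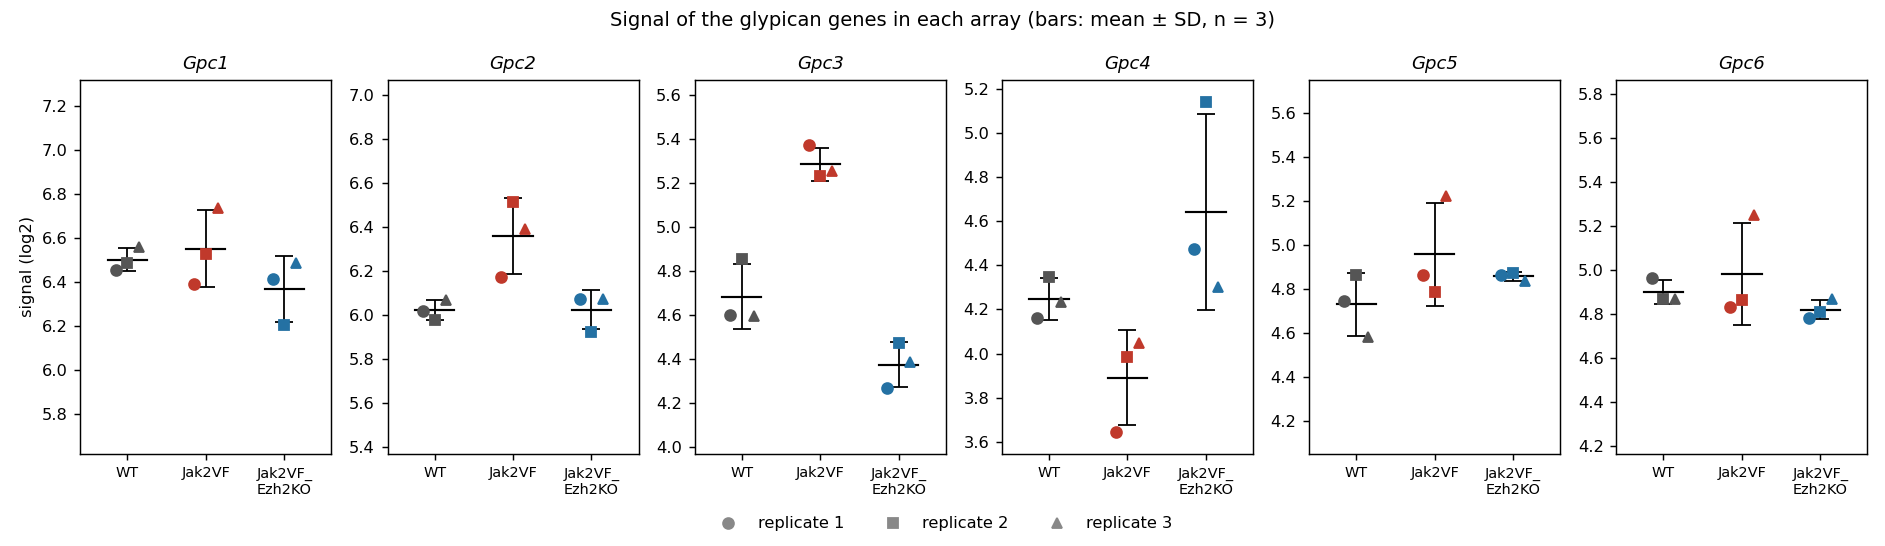
Signal (log2) of the 6 glypican genes in each array by group; symbols mark replicates, and bars show the mean ± SD of 3 arrays. Gpc3 and Gpc2 are highest in Jak2VF, Gpc4 is lowest there, and the groups overlap for Gpc1, Gpc5 and Gpc6.

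The enzymes that build, trim and cut heparan sulfate gave 0 calls by limma in each comparison, over 29 measured of 31. At an unadjusted p under 0.05, 1 was higher in Jak2VF than in WT, beside 2.85% of all genes. In Jak2VF_Ezh2KO, 1 was lower than in Jak2VF (3.99% of all genes) and 2 were higher than in WT (4.54%). Their median was 0.06 between Jak2VF and WT, beside 0.03 over all genes. Ext1, which extends the sugar chain, differed by 0.20 and then 0.32 (-0.05 without the arrays with Y-linked signal), and Hpse, which cuts it, by 0.55 between Jak2VF and WT (0.26 without WT replicate 3). Ndst2, which swaps acetyl for sulfate groups on the chain, differed by 0.33 in Jak2VF against WT and by -0.53 in Jak2VF_Ezh2KO against Jak2VF.

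Genes of the pathways that glypican 3 is known to touch were read from 3 lists. Of 16 measured hedgehog pathway genes, 15 of 18 IGF pathway genes and 35 Wnt ligands and receptors, limma called 0 in every comparison. At an unadjusted p under 0.05, the hedgehog list had 0 genes between Jak2VF and WT, the IGF list had 2 lower, and the Wnt list had 2 higher and 2 lower. Between Jak2VF_Ezh2KO and Jak2VF, the hedgehog list had 2 higher, the IGF list 1 higher and 1 lower, and the Wnt list 2 higher. Against WT, Jak2VF_Ezh2KO had 0 hedgehog genes, 1 higher IGF gene and 1 higher Wnt gene, where 4.54% of all genes were higher. With 2.85% higher and 1.81% lower over all genes between Jak2VF and WT, and 2.91% and 3.99% between Jak2VF_Ezh2KO and Jak2VF, counts of this size in lists of 15 to 35 genes are not read as a result. Ptch1 and Gli1, whose transcripts track hedgehog signalling in many tissues, differed by 0.23 and 0.03 between Jak2VF and WT. Igf2r, the receptor that clears IGF2, read 5.91, 5.93 and 6.01 in the WT arrays, 5.30, 5.63 and 5.72 in the Jak2VF arrays and 5.84, 5.93 and 5.89 in the Jak2VF_Ezh2KO arrays. Its Jak2VF arrays were below all others, by -0.40 from WT (limma, adjusted p = 0.924), and 0.64% of all genes had every Jak2VF array below all 6 others (2.57% below every WT array). Ryk, a Wnt receptor, had the differences -0.55 and then 0.98 (adjusted p = 0.924 and 0.383), the latter 0.54 without the arrays with Y-linked signal.

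The relatives of the other 2 membrane proteins were also read. Of 23 other genes of the Mfsd family, counted with its relatives Flvcr1, Flvcr2 and the Slc46 genes, limma called 0, with 1 higher and 1 lower at an unadjusted p under 0.05 between Jak2VF and WT, 1 higher and 2 lower between Jak2VF_Ezh2KO and Jak2VF, and 0 between Jak2VF_Ezh2KO and WT. The shares over all genes were 2.85% higher and 1.81% lower, then 2.91% and 3.99%. Mfsd2b, which exports sphingosine-1-phosphate from red cells and platelets, read 7.02, 8.07 and 7.07 in the WT arrays, 8.25, 9.13 and 8.55 in the Jak2VF arrays, and 7.78, 7.62 and 7.62 in the Jak2VF_Ezh2KO arrays. All its Jak2VF arrays were above the others, with a difference from WT of 1.26 ± 0.29 (SE; limma, adjusted p = 0.924) and of -0.97 ± 0.29 in Jak2VF_Ezh2KO against Jak2VF (adjusted p = 0.504). The difference from WT was larger than that of Mfsd13a, and WT replicate 2 alone came close to the Jak2VF arrays. Of 59 other Lrrc genes, limma called 0 in each comparison. At an unadjusted p under 0.05, 2 were higher in Jak2VF than in WT. In Jak2VF_Ezh2KO, 1 was higher and 3 lower than in Jak2VF, and 3 were higher than in WT, where 4.54% of all genes were higher. Lrrc8b, a subunit of the volume-regulated anion channel, read 6.80, 7.05 and 6.52 in the WT arrays, 7.09, 7.47 and 7.39 in the Jak2VF arrays, and 7.05, 6.81 and 6.62 in the Jak2VF_Ezh2KO arrays. It was the 1 gene of the 59 with every Jak2VF array above all others, which held for 1.31% of all genes.

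Lists for the altered genes of the model were read beside the members. Of 21 measured STAT5 targets and feedback genes, limma called 0. At an unadjusted p under 0.05, 3 were higher in Jak2VF than in WT, 1 was higher and 1 lower in Jak2VF_Ezh2KO than in Jak2VF, and 3 were higher in Jak2VF_Ezh2KO than in WT. Over all genes 2.85% were higher in the first comparison, 2.91% higher and 3.99% lower in the second, and 4.54% higher in the third. The median of the 21 genes was 0.21 between Jak2VF and WT and -0.04 between Jak2VF_Ezh2KO and Jak2VF, beside 0.03 and -0.04 over all genes. Pim1, a kinase induced by STAT5, differed by 0.88 ± 0.25 (SE) between Jak2VF and WT (limma, adjusted p = 0.924) and by -0.29 in Jak2VF_Ezh2KO minus Jak2VF (adjusted p = 0.862), or -0.02 without the arrays with Y-linked signal. Cish, a feedback inhibitor induced by STAT5, differed by -0.28 and then 1.21 ± 0.31 (adjusted p = 0.938 and 0.39). Of 30 measured Polycomb genes, limma called 0. At an unadjusted p under 0.05, 1 was higher in Jak2VF than in WT. In Jak2VF_Ezh2KO, 1 was higher and 3 lower than in Jak2VF, and 3 were higher and 2 lower than in WT. The list includes Ezh2 itself, the deleted gene. Ezh2 was among the 3 lower than in Jak2VF, with the lowest difference of the list, at -0.59. In the comparison of Jak2VF_Ezh2KO with WT, 4.06% of all genes were lower.

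The genes next to each of the 5 on its chromosome were read as well, 3 on each side, from the RefSeq gene order. Of 30 neighbours, 25 were measured and limma called 0 in each comparison. At an unadjusted p under 0.05, 2 were higher in Jak2VF than in WT. In Jak2VF_Ezh2KO, 1 was higher than in Jak2VF and 1 was higher than in WT. Over all genes the shares higher were 2.85%, 2.91% and 4.54% in the same order. Differences between Jak2VF and WT ran from -0.06 to 0.68 beside I730030J21Rik, from 0.06 to 0.45 beside I830077J02Rik, from -0.77 to 0.09 beside Gpc3, from -0.25 to 0.26 beside Lrrc66 and from -0.04 to 0.35 beside Mfsd13a. In both comparisons with Jak2VF, each of the 5 genes had a difference larger in size than its measured neighbours, apart from Mir363 beside Gpc3. Mir363 differed by -0.77 between Jak2VF and WT, with arrays scattered from 2.91 to 6.07 in WT alone. The 5 genes were picked for these differences and their neighbours were not, so the contrast in size follows largely from the choice.

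Galnt6, which starts mucin-type sugar chains on proteins, lies next to I730030J21Rik on the same strand. Its signal was 6.45, 7.67 and 7.63 in the WT arrays, 7.81, 8.13 and 7.85 in the Jak2VF arrays, and 7.56, 7.25 and 7.63 in the Jak2VF_Ezh2KO arrays. All Jak2VF arrays were above the others, as for 1.31% of all genes. The difference from WT was 0.68 ± 0.29 (SE; limma, adjusted p = 0.924), and WT replicate 1 was far below the other WT arrays. Without that array the difference was 0.28. Wdr77, a partner of the arginine methyltransferase Prmt5 and neighbour of I830077J02Rik, differed by 0.45 ± 0.20 and then -0.43 (adjusted p = 0.924 and 0.729). Sgcb, a sarcoglycan gene next to Lrrc66, differed by 0.26 and -0.37 (-0.17 without the arrays with Y-linked signal), and Cuedc2, the second gene from Mfsd13a, by 0.35 and -0.21 (0.00 without them). The noncoding gene A630012P03Rik, which overlaps the start of Gpc3 and was chosen after its values were seen, differed by -0.10 and -0.13 (adjusted p = 0.953 and 0.9).

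**Figure D4:**
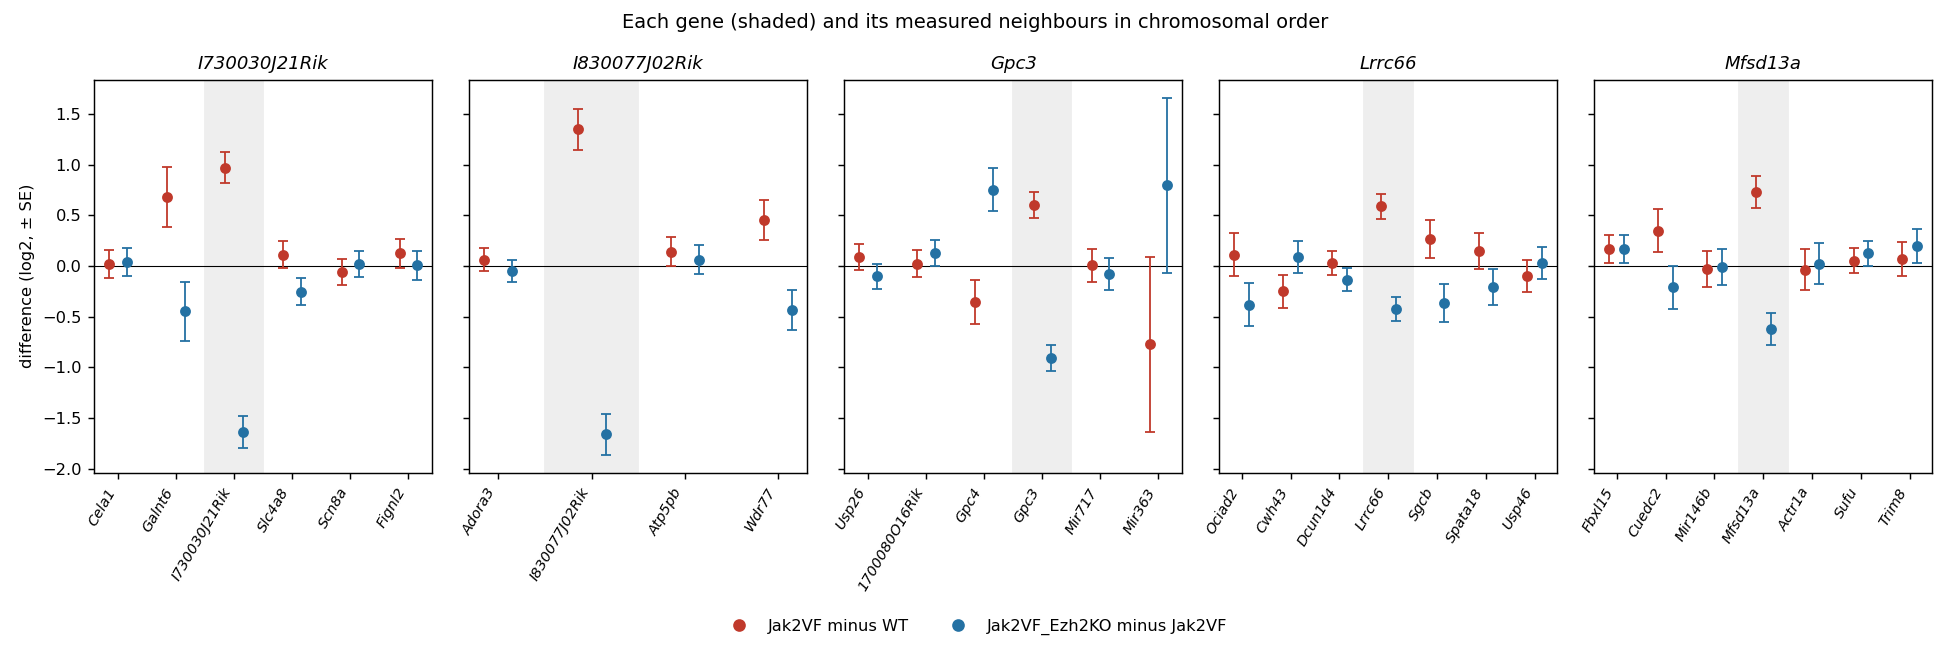
Differences (log2, ± SE of the fit) of each gene, shaded, and its measured neighbours in chromosomal order; red points are Jak2VF minus WT and blue points Jak2VF_Ezh2KO minus Jak2VF. Neighbours mostly lie near 0, Galnt6 has the same pair of signs as I730030J21Rik, and Gpc4 has the reverse of Gpc3.

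Genes with a profile like the 5 genes were named by Pearson correlation over the 9 arrays, 5 for each profile, as a description. All points share the same 9 arrays and the group pattern. The profile most like the mean of the 5 genes was that of Itga2b (r = 0.975), the platelet integrin subunit known as CD41, followed by Hp1bp3 (0.943), Ctps2 (0.941), Rnf169 (0.934) and Plek (0.931), a platelet and leukocyte signalling protein. Itga2b read 6.86, 7.41 and 7.10 in the WT arrays, 8.07, 8.51 and 8.31 in the Jak2VF arrays, and 7.08, 6.59 and 6.85 in the Jak2VF_Ezh2KO arrays. Plek read 8.45, 8.71 and 8.40 in the WT arrays, 9.10, 9.46 and 9.54 in the Jak2VF arrays, and 8.21, 7.47 and 8.24 in the Jak2VF_Ezh2KO arrays. Both had all Jak2VF arrays above the others (1.31% of all genes), and Plek had the WT arrays in the middle without overlap (0.135%).

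**Figure D5:**
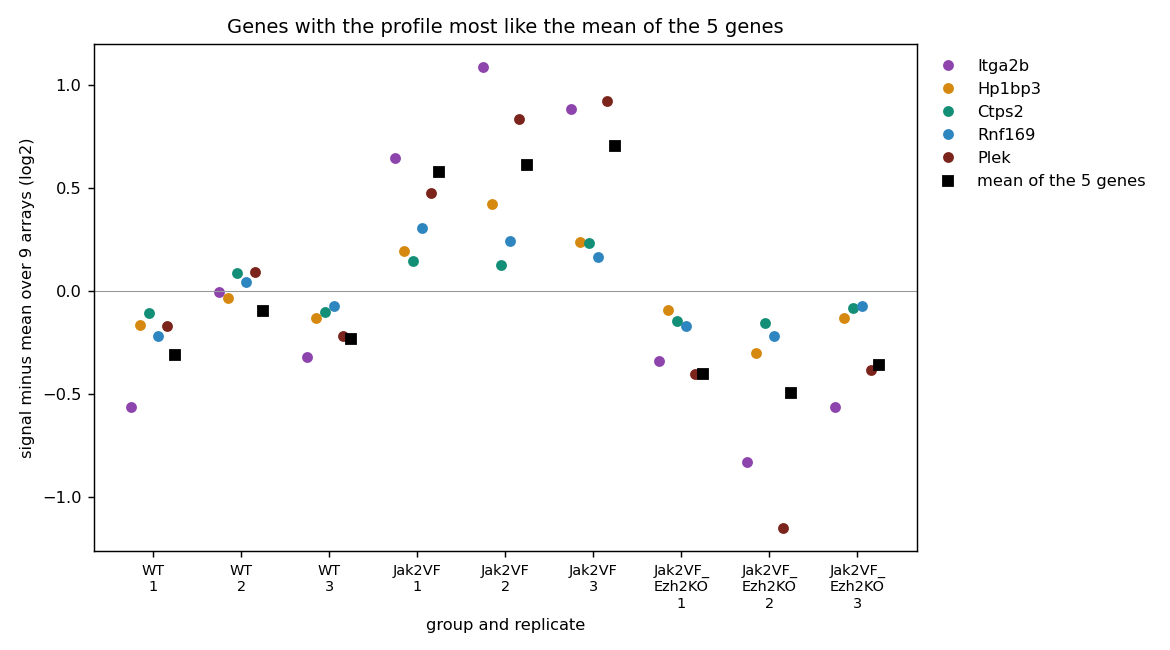
Signal minus the gene's mean over 9 arrays (log2) in each array for the 5 genes most like the mean profile (coloured points) and for that mean profile (black squares, 0.58 to 0.71 in Jak2VF). Itga2b and Plek span a wider range than the mean profile, and Hp1bp3, Ctps2 and Rnf169 a narrower range.

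The single profiles had partly different nearest genes. I830077J02Rik was most like Itga2b (0.973), Ddx39b (0.958), Zfp24 (0.957), Hp1bp3 (0.947) and Itgb3 (0.941), the partner subunit of Itga2b in the platelet integrin. I730030J21Rik and Gpc3 shared Stmn1, which unbinds tubulin from microtubules, as the nearest gene (0.955 and 0.945), and also Ctps2 (0.925 and 0.934). Stmn1 read 7.46, 7.52 and 7.49 in the WT arrays, 7.81, 7.75 and 7.77 in the Jak2VF arrays, and 7.03, 7.09 and 7.21 in the Jak2VF_Ezh2KO arrays, so that the 3 groups were separate. The others for I730030J21Rik were Vezf1 (0.938), Rap1b (0.935) and Dusp18 (0.923), and those for Gpc3 were Rnf169 (0.925), Mapkapk2 (0.922) and Ptbp3 (0.919). Mfsd13a was most like Cpne2 (0.970), Nkg7 (0.963), Ubash3b (0.953), Fndc3a (0.952) and Snx10 (0.951). Nkg7, a cytotoxic granule protein, read 8.85, 9.47 and 8.86 in the WT arrays, 9.62, 10.13 and 9.82 in the Jak2VF arrays, and 9.01, 8.96 and 9.36 in the Jak2VF_Ezh2KO arrays. It was the exception among 6 T and NK cell markers. Of these, 4 were lower in Jak2VF than in WT. In Jak2VF_Ezh2KO against Jak2VF, 5 were higher and Nkg7 alone was lower. Lrrc66 had the least close matches, Adh6b (0.912), Gnal (0.905), Tmod3 (0.901), Cd53 (0.892) and Atp8b4 (0.892).

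Markers of the sorted cells and of other blood cells were read beside these genes. Of 9 stem cell and sort gate genes, 7 were measured, and their mean signal was 8.26 to 8.36 in WT, 8.06 to 8.22 in Jak2VF and 8.23 to 8.35 in Jak2VF_Ezh2KO, so the mean was lowest in Jak2VF. Against WT, 3 of the 7 were higher and 4 lower in Jak2VF, with a median of -0.02 and Mecom lowest at -0.71, and limma called 0. At an unadjusted p under 0.05, 0 were higher and 2 lower, beside 2.85% and 1.81% of all genes. Kit, which the sort selected for, read 9.43 to 10.18 over the 9 arrays. Cd34, which the sort selected against on the cell surface, read 9.91 to 10.68. Megakaryocyte markers, 5 of 6 measured, overlapped between Jak2VF and WT in their mean. The Jak2VF mean was above the WT mean for 4 of the 5, with Vwf, the von Willebrand factor gene, at -0.20, and every Jak2VF array was highest for 1, Itga2b. The list mean was 7.47 to 7.70 in WT, 7.61 to 8.21 in Jak2VF and 7.16 to 7.47 in Jak2VF_Ezh2KO, so the mutant groups did not overlap. At an unadjusted p under 0.05 by limma, 2 of the 5 were higher in Jak2VF than in WT, beside 2.85% of all genes. In Jak2VF_Ezh2KO, 2 were lower than in Jak2VF (3.99% of all genes) and 1 was lower than in WT (4.06%). All 5 had a negative difference from Jak2VF there, with a median of -0.33, beside -0.04 over all genes. In that list limma called 1 gene, Itga2b, lower in Jak2VF_Ezh2KO than in Jak2VF by -1.45 (adjusted p = 0.0441), and 0 in the other comparisons. Without the arrays with Y-linked signal the difference of Itga2b was -1.44, and the call was lost with 1 array left in its group.

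Mast cell and basophil markers, 6 of 6 measured, had means of 5.73 to 5.95 in WT, 6.52 to 7.11 in Jak2VF and 6.92 to 7.34 in Jak2VF_Ezh2KO, higher in both mutant groups. At an unadjusted p under 0.05, 5 of the 6 were higher in Jak2VF than in WT, beside 2.85% of all genes. In Jak2VF_Ezh2KO, 2 were higher than in Jak2VF (2.91% of all genes) and 4 were higher than in WT (4.54%). Their median differences from WT were 0.98 in Jak2VF and 1.49 in Jak2VF_Ezh2KO. After adjustment, limma called 1 gene, Cma1, a mast cell protease. It was higher in Jak2VF_Ezh2KO by 1.63 against Jak2VF (limma, adjusted p = 0.0441) and by 1.67 against WT (adjusted p = 0.0459). Between Jak2VF and WT limma called 0, and Cma1 had the smallest difference of the 6, at 0.05. Without the arrays with Y-linked signal the differences of Cma1 were 1.39 and 1.44, with 1 array left in the Jak2VF_Ezh2KO group, too few to judge the calls. Monocyte markers had means of 5.33 to 5.94, 6.08 to 6.22 and 5.74 to 5.85 in the same order of groups, with Jak2VF highest and all 5 measured. Neutrophil markers had 5.26 to 5.90, 5.40 to 6.11 and 5.77 to 7.05, and T and NK cell markers 5.74 to 5.83, 5.53 to 5.92 and 6.08 to 6.63. Erythroid markers, 3 of 6 measured, had 7.79 to 8.62, 7.51 to 8.72 and 8.38 to 8.74, with overlap between all groups. B cell markers had 5.27 to 5.49, 5.35 to 5.48 and 5.19 to 6.19, and stroma and endothelial markers 5.93 to 6.05, 5.71 to 5.86 and 5.86 to 6.20. The part of megakaryocyte and monocyte transcripts in the levels of the 5 genes was not tested.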

How the data were processed

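Expression was measured on 9 Affymetrix mouse gene arrays, 3 per group. The authors deposited log2 values for 41345 probe sets, and the submitters' processing notes name Partek 6.6. The sources used here do not give the background correction, normalization or summary, and no further normalization was applied. The number of arrays limits the precision, and p-values set a difference against the spread between these arrays.

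Names came from the platform annotation, where 23521 probe sets had 1 symbol, 1814 several and 16010 were unnamed here. For each single-symbol gene the probe set with the highest mean was kept, leaving 22180 genes. All 9 arrays entered 1 fit with limma 3.58.1 (lmFit, eBayes; R 4.3.3), with Benjamini-Hochberg adjustment over all genes of a contrast and a threshold of 0.05. A fold is 2 raised to the size of the log2 difference. Standard errors belong to the log2 differences and come from that fit. Its variance for each gene is drawn toward a value shared by all genes, with 6 residual and 3.83 prior degrees of freedom. The fit was tested on simulated data.

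The 5 genes and the gene lists were chosen with earlier results of these data known. By rule, the text names the 5 genes, the 5 most correlated genes per profile, Ezh2 and list genes that passed. Of the measured chromosomal neighbours and the examples set beforehand for each list, only some are named. Gpc2, Gpc5, Tgfbr3, Hpse, Ryk, Lrrc8b and the single markers were chosen after their values were seen. Neighbours come from the RefSeq gene order and promoters from the RefSeq promoter table, both of GRCm38.p6, since no build is named for the array in the sources used here. Alternatives were quantile normalization, median centring, leaving out dim genes, ordinary least squares, an intensity trend with robust variance, every probe set, the replicate number as a block, Y-linked signal as a covariate, the 2 groups alone and each array left out. A fit without the pair of arrays with Y-linked signal was added after seeing the data.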

Additional observations from a re-analysis of the deposited data

How the results depend on the processing

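The 282 differences of the 5 genes recomputed under the alternatives all kept their sign and moved by less than 1 SD. Many of them could not move. Settings that alter only the variance, the set of genes or the group outside the comparison leave a difference of group means unchanged. The 5 genes were also picked for these differences, so the count is a description. The 360 medians of the gene lists moved by less than 1 SD of the single-gene differences in their list. That SD is wide for a median, so this says little about how firm the medians are. Some changed sign. The median of the glypican and proteoglycan list in Jak2VF against WT was 0.02, and -0.04 without Jak2VF replicate 3. In Jak2VF_Ezh2KO against WT it was -0.02, and 0.05 without both arrays with Y-linked signal. The counts of called genes depended on the setting. For Jak2VF against WT limma called 0 genes in every alternative run. For Jak2VF_Ezh2KO against Jak2VF it called 10 genes, and 19 with dim genes left out, 4 with median centring, 4 with Y-linked signal as a covariate, and 0 with ordinary least squares, every probe set, the 2 groups alone or without both arrays with Y-linked signal. For Jak2VF_Ezh2KO against WT it called 5, and 10 with an intensity trend, 3 with median centring, 2 with the covariate, and 0 under the same 4 other settings. Leaving out single arrays gave 0 to 17 genes and 0 to 14 genes. The number of genes with every Jak2VF array highest was 290, and 453 after quantile normalization, 468 over every probe set, and 326 to 1366 with an array left out, where fewer arrays have to be separated. The cause of the other changes was not tested. With the replicate number as a block, 0 genes were called in each of the 3 comparisons and the differences of the 5 genes were identical. Same-numbered arrays correlated at -0.231 to 0.484 in their deviations from the group means, with 2 of 9 pairs over 0.1, so the numbers were not taken as pairs.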

Other observations

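Many genes had exactly the same deposited value in several arrays. Of 22180 genes, 5186 (23.4%) had 1 value shared by 3 or more of the 9 arrays, and 201 (0.906%) had it in 6 or more. Of the 5186, 62.2% were among the dimmer genes. Adora3, a neighbour of I830077J02Rik that encodes an adenosine receptor, read 5.02 in 6 of 9 arrays, and Scn8a, a sodium channel gene near I730030J21Rik, read 4.09 in 6. None of the 5 genes had a value shared by any 2 arrays.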
